A study of Mus musculus with 9 samples.

Results

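The genes described here carry a cell through G2 and mitosis: cyclins and their kinase, the mitotic kinases, the spindle assembly checkpoint, the kinetochore, the chromosomal passenger complex, the partners of the anaphase-promoting complex, and proteins of the spindle, of cytokinesis and of mitotic chromosomes. They form a list of 37 genes named by function, drawn up with results of these arrays known, and kinesin genes were left out of it, with the exception of Cenpe, which itself encodes a kinetochore kinesin. Of the 37, 36 were measured among the 18193 named genes of the array. Ccnb1, which encodes cyclin B1, had no probe set that names it alone and has no value here.

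The yNSCs had been derived from mouse cortical neurons by doxycycline-inducible expression of wild-type YAP, the nuclear effector of the Hippo pathway. The study describes them as neural stem cell-like cells. They were set against native mouse NSCs and against mouse cortical neurons, with 3 biological replicates (A, B and C) in each group and 9 Affymetrix Mouse430_2 arrays in all. The yNSCs and NSCs grew in DMEM/F12 medium that held N2, heparin and the mitogens EGF and bFGF. The neurons grew in Neurobasal with B27 and AraC, a nucleoside analogue that kills dividing cells, so that in both comparisons with neurons the cell type, the mitogens and AraC cannot be told apart. Between yNSCs and NSCs, the same holds for neuronal origin, vectors and YAP. Per the study's methods, YAP and the transactivator came in on lentiviral vectors, neurons were taken from late embryos or newborn pups, and yNSCs were passaged without doxycycline once spheres had formed. Neither strain nor the age of the animals behind these arrays is given in the labels.

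A dividing cell builds cyclin A and cyclin B through S and G2. With Cdk1 they drive entry into mitosis once Cdc25 phosphatases have removed inhibitory phosphates. The spindle assembly checkpoint then holds the anaphase-promoting complex in check until every kinetochore is attached to microtubules, after which Cdc20 and Ube2c mark cyclin B and securin for destruction and the cell divides. Most of these genes are transcribed late in the cell cycle and are silent in cells that have left it. Mature neurons are post-mitotic, whereas neural stem cells divide in the presence of EGF and FGF.

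Many promoters of this class hold CCAAT boxes, bound by NF-Y, and a CHR (cell cycle genes homology region), the letters TTTGAA or TTCGAA, bound by the DREAM and MuvB complexes. The stretches shown here are the 110 bases before the annotated start of 8 members. Cdk1, Prc1 and Bub3 are shown because yNSCs came closest to the NSC level there. Ccnb2, Cdc20, Ube2c, Cenpa and Cdc25b are a selection of the genes where yNSCs stood far below it. Racgap1, further below NSCs (log2 difference -1.9) than Ccnb2 (-1.79) and Ube2c (-1.62), is not shown. Capitals mark the CCAAT box, which reads as ATTGG when it lies on the other strand, and the CHR, shown here as TTTGAA and, when it lies on the other strand, as TTCAAA. All come from RefSeq on GRCm38.p6, read 5′ to 3′ on the gene's strand. Ccnb2 lies on the minus strand (chr9:70421555-70421664), as do Cdk1 (chr10:69352913-69353022) and Cdc20 (chr4:118437344-118437453). The other 5 lie on the plus strand: Ube2c (chr2:164769819-164769928), Prc1 (chr7:80294366-80294475), Bub3 (chr7:131560260-131560369), Cenpa (chr5:30666776-30666885) and Cdc25b (chr2:131186838-131186947).
Cdk1: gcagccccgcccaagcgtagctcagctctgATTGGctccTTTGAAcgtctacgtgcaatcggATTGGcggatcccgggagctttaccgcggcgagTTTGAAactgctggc
Prc1: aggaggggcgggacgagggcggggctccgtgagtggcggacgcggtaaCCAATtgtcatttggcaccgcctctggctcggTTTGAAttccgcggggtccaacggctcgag
Bub3: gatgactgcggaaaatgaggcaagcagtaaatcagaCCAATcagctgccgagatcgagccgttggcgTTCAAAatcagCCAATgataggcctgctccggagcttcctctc
Ccnb2: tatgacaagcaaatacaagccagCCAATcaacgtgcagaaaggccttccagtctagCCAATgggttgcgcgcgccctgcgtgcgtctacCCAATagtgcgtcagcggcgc
Cdc20: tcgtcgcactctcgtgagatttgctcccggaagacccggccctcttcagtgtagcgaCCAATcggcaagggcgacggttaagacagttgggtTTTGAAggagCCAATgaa
Ube2c: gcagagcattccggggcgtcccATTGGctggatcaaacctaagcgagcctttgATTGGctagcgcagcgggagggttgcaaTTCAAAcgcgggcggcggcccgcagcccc
Cenpa: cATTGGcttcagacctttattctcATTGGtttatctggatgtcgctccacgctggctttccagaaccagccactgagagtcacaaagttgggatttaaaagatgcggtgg
Cdc25b: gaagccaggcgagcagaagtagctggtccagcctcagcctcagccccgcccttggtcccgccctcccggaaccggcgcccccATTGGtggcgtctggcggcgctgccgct
The Cdk1 stretch held 2 CCAAT boxes and 2 CHR letters, Bub3 held 2 and 1, and Prc1 held 1 of each. The stretches of Ube2c and Cdc20 also held 2 CCAAT boxes and 1 CHR each. Ccnb2 held 3 CCAAT boxes and Cenpa 2, with no CHR letters in these 110 bases, and Cdc25b held 1 CCAAT box alone. Outside the stretch, Ccnb2, Cenpa and Cdc25b each held CHR letters past the annotated start, with the first base at 5, 17 and 8. Ccnb2 held further CHR letters at -167. Among the 8 genes shown, which were picked by these levels, both kinds of letters stood in genes near the NSC level and in genes far below it. Nuf2 and Nusap1, the next closest to the NSC level, held neither motif in the 250 bases before the start or the 50 after it.

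Of the 37 genes, 31 had a RefSeq promoter entry, and the search covered both strands of the 250 bases before each start. CCAAT stood in 24 of the 31 (77.4%), against 37.5% of the 27025 genes in the promoter table. TTTGAA or TTCGAA stood in 11 (35.5%), against 19.6% of all genes. The same 35.5% held both motifs, against 7.0% of all genes. With the 50 bases after the start included, the share with TTTGAA or TTCGAA was 74.2% against 21.7%, and the CHR letters so added lie across or just past the annotated start. A pair of CCAAT boxes in the same orientation 31 to 33 bases apart stood in 7 of the 31 (22.6%) and in 0.833% of all genes. That spacing was picked after the sequences had been seen. These are counts of letters, and occupancy was not measured in these samples.

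**Figure D1:**
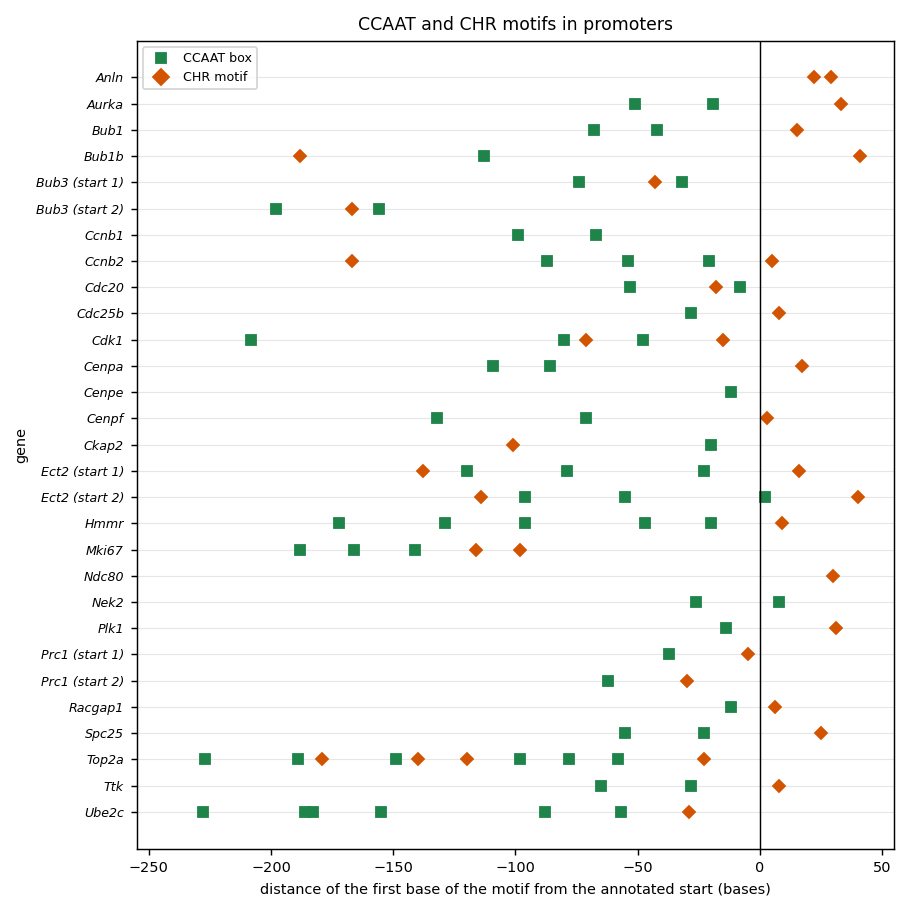
Position of CCAAT boxes (green squares) and CHR letters (orange diamonds) around the annotated start of each member promoter that holds either motif, with the distance of the motif's first base from the start in bases on the x axis and a second row where a gene has a second annotated start. Most CCAAT boxes lie within the 100 bases before the start, and many CHR letters lie on either side of the start itself.

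All values are the authors' RMA summaries on a log2 scale, so a difference of 1 is a 2-fold change. The median of an array lay between 4.9 and 5.02, and no further scaling was applied. Differences were tested with limma across all 18193 genes with Benjamini-Hochberg adjustment, and a gene was called at an adjusted p under 0.05. The 3 groups differed in much of their transcriptome: 62.5% of all genes were called in yNSCs against neurons, 67.4% in NSCs against neurons and 39.3% in yNSCs against NSCs. Neuron markers averaged 5.70 to 5.78 in yNSC arrays and 5.80 to 5.92 in NSC arrays, against 11.06 to 11.15 in neuron arrays. The NSC markers averaged 10.15 to 10.19 in yNSCs, 10.48 to 10.67 in NSCs and 9.03 to 9.15 in neurons, and 4 of the 6 were called higher in yNSCs than in neurons. The other 2 were Hes5, a Notch target (4.10 to 4.33 in yNSCs, 7.89 to 8.42 in NSCs and 4.91 to 5.31 in neurons), which was called lower, and Fabp7, a radial glia lipid carrier (13.26 to 13.39 in yNSCs, 13.47 to 13.72 in NSCs and 13.51 to 13.64 in neurons), which was not called. Both were called lower in yNSCs than in NSCs, by differences of -3.88 and -0.31. Astrocyte markers averaged 10.07 to 10.23 in yNSCs, 7.19 to 7.90 in NSCs and 9.66 to 9.89 in neurons. Of these 5 markers, 4 were called higher in yNSCs than in NSCs. The differences were 5.42 for Gfap, 4.83 for Aqp4, 1.23 for Slc1a2 and 0.92 for Gja1, and Aldh1l1 was not called. Microglia markers averaged 4.56 to 4.61 in yNSCs, 3.62 to 3.68 in NSCs and 8.11 to 8.74 in neurons. All 6 microglia markers lay above the lower quartile of the arrays in neurons, against 5 in yNSCs and 4 in NSCs for the same line, and all 5 astrocyte markers did so in every group. Most probe sets of an array lie above that line by definition. Markers of oligodendrocyte precursors averaged 7.63 to 7.74 in yNSCs, 8.92 to 8.99 in NSCs and 8.55 to 8.63 in neurons, and those of fibroblasts and endothelium 3.87 to 4.03 in yNSCs, 4.08 to 4.21 in NSCs and 4.68 to 4.80 in neurons. The part of these other cell types in the levels of the G2 and mitosis genes was not tested.

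All 36 genes were higher in yNSCs than in neurons and in NSCs than in neurons. For each of them every yNSC and NSC array lay above every neuron array, as was so for 36.8% of all genes in yNSCs and 33.5% in NSCs. Across all genes, 34.6% were called higher in yNSCs than in neurons and 33.3% in NSCs than in neurons. The median difference of the 36 genes was 3.14 in yNSCs (range 0.40 to 4.73) and 4.49 in NSCs (range 1.22 to 5.50), beside medians of -0.01 and -0.07 over all genes. The difference reached 4-fold for 32 genes in yNSCs and for 35 in NSCs, as it did for 5.95% and 6.41% of all genes. These comparisons share the neuron arrays.

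Set directly against NSCs, yNSCs had lower values for 31 of the 36 genes and higher values for none, where 18.0% of all genes were called lower. All 36 differences were negative, with a median of -1.11 (range -2.34 to -0.04), beside 0.07 over all genes. The difference reached 2-fold for 20 genes, as it did for 5.96% of all genes, and 4-fold for 3, Cenpa, Cdc25b and Cdc25c (1.29% of all genes). The 5 genes not called were Cdk1, Bub3, Nuf2, Nusap1 and Prc1. For 32 genes every yNSC array lay below every NSC array, as was so for 21.9% of all genes. In bulk RNA a smaller share of cells in G2 and mitosis cannot be told apart from less of these transcripts per cell.

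Control probe sets on the arrays also differed between these groups. The 3′ minus 5′ difference of Actb, a measure of how far labelling reached along the RNA, was 0.31, 0.29 and 0.19 in yNSCs, 0.62, 0.56 and 0.70 in NSCs and 0.21, 0.21 and 0.03 in neurons. That of Gapdh was -0.04, -0.08 and -0.09 in yNSCs, 0.28, 0.11 and 0.13 in NSCs and -0.17, -0.19 and -0.17 in neurons. The 5′ probe set of 18S rRNA read 13.17, 13.18 and 13.18 in yNSCs, 10.63, 11.65 and 11.70 in NSCs and 13.4, 13.05 and 13.01 in neurons. The yNSC and NSC arrays did not overlap in any of the 3 measures, and neither did the NSC and neuron arrays. Their part in the differences of the 36 genes was not tested.

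**Figure D2:**
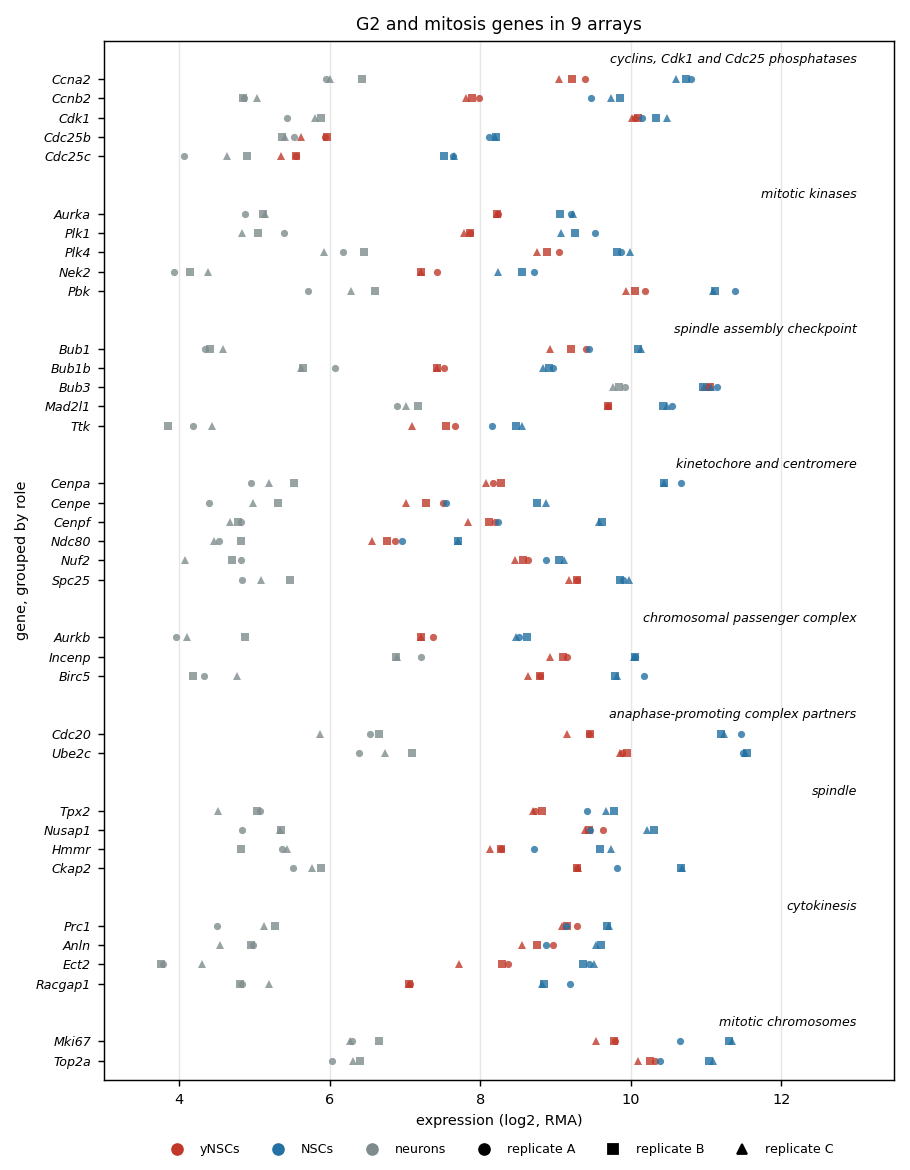
Expression of the 36 G2 and mitosis genes on each of the 9 arrays (x axis, log2 RMA value), grouped by role, with yNSCs in red, NSCs in blue and neurons in grey and the replicate given by the shape of the point. All yNSC and NSC points lie to the right of the neuron points of the same gene, and for 32 genes the yNSC points lie to the left of all NSC points.

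The cyclins showed the common pattern. Ccna2, the cyclin A of S phase and G2, stood at 9.39, 9.22 and 9.04 in yNSCs, 10.80, 10.73 and 10.60 in NSCs and 5.95, 6.43 and 6.01 in neurons. Ccnb2, a B-type cyclin, stood at 7.98, 7.89 and 7.81 in yNSCs, 9.47, 9.85 and 9.73 in NSCs and 4.86, 4.85 and 5.03 in neurons. In both genes the 3 groups formed separate steps, with yNSCs in the middle. Ccnb2 was 2.98 above neurons in yNSCs (SE 0.118, limma adjusted p = 5.63e-10) and 1.79 on the log2 scale below NSCs (difference -1.79, SE 0.118, adjusted p = 2.02e-07). The yNSC difference from NSCs was -1.49 for Ccna2 (SE 0.142, adjusted p = 4.58e-06).

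For Cdk1, the kinase that these cyclins activate, the step between yNSCs and NSCs was not called. Its values were 10.05, 10.10 and 10.01 in yNSCs, 10.15, 10.34 and 10.48 in NSCs and 5.44, 5.88 and 5.81 in neurons. Both yNSCs and NSCs lay more than 4 log2 units above neurons. The yNSC values all lay below the NSC values, with a difference of -0.27 (adjusted p = 0.133), and its 95% interval, not adjusted for the number of genes, ran from -0.56 to 0.02.

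The Cdc25 phosphatases, which activate Cdk1, were at the opposite end. Cdc25b stood at 5.94, 5.96 and 5.62 in yNSCs, 8.12, 8.21 and 8.19 in NSCs and 5.53, 5.37 and 5.41 in neurons. The yNSC arrays lay just above the neuron arrays without overlap (difference 0.40, SE 0.113, adjusted p = 0.00789) and 2.33 log2 units below the NSC arrays (difference -2.33, adjusted p = 1.6e-08). Cdc25c stood at 5.56, 5.55 and 5.35 in yNSCs, 7.64, 7.52 and 7.65 in NSCs and 4.07, 4.9 and 4.64 in neurons, and it too was closer to neurons than to NSCs in yNSCs. Its yNSC difference was 0.95 from neurons (adjusted p = 0.000431) and -2.12 from NSCs (adjusted p = 1.43e-06). A further probe set of Cdc25c gave 1.44 and -2.50. Expressed as a share of the log2 rise from neurons that NSCs showed, which is not a share of the NSC expression level, yNSCs reached 14.7% for Cdc25b and 31% for Cdc25c. These were the only genes of the 36 under 50%. The share was 96.4% for Bub3, 94.1% for Cdk1 and 92.6% for Prc1, and its median over the 36 genes was 74.8%.

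All 5 mitotic kinases were called lower in yNSCs than in NSCs, with differences of -1.44 to -0.94. Plk1, which acts at centrosomes, kinetochores and the midbody, stood at 7.87, 7.87 and 7.79 in yNSCs, 9.53, 9.26 and 9.07 in NSCs and 5.40, 5.05 and 4.84 in neurons. Aurka, the kinase of spindle poles, stood at 8.23, 8.22 and 8.22 in yNSCs, 9.20, 9.06 and 9.23 in NSCs and 4.87, 5.12 and 5.14 in neurons. In each the yNSC arrays were within 0.1 of each other and about 1 log2 unit or more below NSCs. The yNSC differences from NSCs were -1.44 for Plk1 (adjusted p = 1.11e-05) and -0.94 for Aurka (adjusted p = 1.85e-05). Nek2, a centrosomal kinase, Plk4, which starts centriole duplication, and Pbk, a mitotic MAPKK-like kinase, differed by -1.22, -1.0 and -1.14. Nek2 rested on 1 of 4 probe sets. Another gave the same direction, with a yNSC difference of 1.51 from neurons. The remaining ones were dimmer and were called lower in yNSCs than in neurons. Their differences were -1.66, at a mean of 3.47 in yNSCs and 5.13 in neurons, and -0.26, at 3.71 and 3.97.

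Within the spindle assembly checkpoint, the difference between yNSCs and neurons ran from 1.17 for Bub3 to 4.73 for Bub1. Bub1, a checkpoint kinase, had the largest rise of the 36 in yNSCs over neurons (4.73, SE 0.182, adjusted p = 4.53e-10), with 9.41, 9.21 and 8.93 in yNSCs, 9.44, 10.09 and 10.13 in NSCs and 4.35, 4.41 and 4.59 in neurons. The yNSC arrays came close to NSC replicate A and stayed below NSC replicates B and C. Bub1b, which encodes BubR1 and inhibits Cdc20, stood at 7.52, 7.43 and 7.43 in yNSCs, 8.97, 8.91 and 8.83 in NSCs and 6.07, 5.64 and 5.62 in neurons. Its yNSC difference from NSCs was -1.44 (adjusted p = 2.28e-06). Mad2l1, the Mad2 subunit of the same inhibitor, and Ttk, which encodes the kinase Mps1, were also called lower, with differences from NSCs of -0.78 and -0.97.

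Bub3, which brings Bub1 and BubR1 to kinetochores, was the checkpoint gene not called between yNSCs and NSCs. It stood at 11.02, 11.05 and 10.97 in yNSCs, 11.14, 10.96 and 11.07 in NSCs and 9.92, 9.84 and 9.76 in neurons. The yNSC and NSC arrays overlapped (difference -0.04, 95% interval -0.26 to 0.17, adjusted p = 0.77), and the yNSC mean was 2.26-fold above the neuron mean, the smallest difference from neurons of any gene but Cdc25b and Cdc25c. Bub3 had 4 further probe sets. The brightest of them gave 8.63, 8.67 and 8.68 in yNSCs and 8.31, 8.23 and 8.16 in NSCs, a difference of 0.43 in the other direction (adjusted p = 0.00342 in the fit over all probe sets). Another, near background, gave 3.73, 3.71 and 3.67 in yNSCs, 4.66, 4.86 and 4.41 in NSCs and 3.39, 2.94 and 2.76 in neurons, and was called lower in yNSCs than in NSCs (difference -0.94, adjusted p = 0.000585). The other 2, dimmer still, were not called (differences of -0.19 and -0.43), so that the probe sets of Bub3 did not give 1 direction between yNSCs and NSCs.

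Among kinetochore and centromere genes, Cenpa, the histone H3 variant that marks centromeres, had the largest gap between yNSCs and NSCs of all 36 genes. It stood at 8.17, 8.28 and 8.07 in yNSCs, 10.66, 10.44 and 10.44 in NSCs and 4.95, 5.53 and 5.19 in neurons. The yNSC arrays lay 2.34 log2 units below NSCs (difference -2.34, SE 0.143, adjusted p = 1.07e-07) and still 7.73-fold above neurons. Ndc80, Nuf2 and Spc25 encode subunits of the Ndc80 complex, which binds microtubules. Their yNSC differences from NSCs were -0.73, -0.45 and -0.66. Nuf2 stood at 8.64, 8.57 and 8.46 in yNSCs, 8.87, 9.04 and 9.11 in NSCs and 4.82, 4.71 and 4.08 in neurons, with no overlap, and was not called between yNSCs and NSCs (adjusted p = 0.0534, 95% interval -0.82 to -0.08). Nuf2 passed in the fit of the 6 yNSC and NSC arrays alone (adjusted p = 0.00659), without neuron A (0.0382) and without neuron C (0.00535). It also passed without the 40% of genes of lowest mean (0.0414), with probe sets averaged (0.0475) and with a variance trend and robust prior (0.0486). Under every other alternative, such as the fit without NSC A (0.0556), Nuf2 was not called.

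The chromosomal passenger complex corrects faulty attachments and later directs cytokinesis. All 3 measured members were called in each comparison. Aurkb, the kinase, was 2.95 above neurons and differed by -1.27 from NSCs. The same differences were 2.06 and -0.99 for Incenp, the scaffold, and 4.31 and -1.19 for Birc5, which encodes survivin. Birc5 stood at 8.79, 8.80 and 8.63 in yNSCs, 10.18, 9.79 and 9.82 in NSCs and 4.33, 4.18 and 4.77 in neurons. Its rise of 5.50 in NSCs over neurons, 45.4-fold, was the largest of the 36. The probe sets of Aurkb and Incenp are of kinds that can also bind related transcripts, as are those of Cdc20, Bub3, Prc1, Nek2, Plk4 and Pbk.

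Cdc20, which activates the anaphase-promoting complex, stood at 9.44, 9.46 and 9.15 in yNSCs, 11.46, 11.20 and 11.24 in NSCs and 6.53, 6.66 and 5.87 in neurons. Ube2c, the ubiquitin-conjugating enzyme of the same complex, stood at 9.88, 9.95 and 9.85 in yNSCs, 11.49, 11.54 and 11.51 in NSCs and 6.39, 7.09 and 6.73 in neurons. The yNSC arrays lay between the others without overlap in both genes. The yNSC differences from NSCs were -1.95 for Cdc20 (adjusted p = 4.37e-06) and -1.62 for Ube2c (adjusted p = 3.4e-06).

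Of the 4 spindle genes, Tpx2, which activates Aurora A, Hmmr and Ckap2 were called lower in yNSCs than in NSCs, with differences of -0.87, -1.11 and -1.10. Nusap1, which bundles spindle microtubules, stood at 9.63, 9.44 and 9.39 in yNSCs, 9.46, 10.31 and 10.22 in NSCs and 4.83, 5.36 and 5.34 in neurons. Its yNSC arrays overlapped NSC replicate A alone, and the difference of -0.51 was not called (adjusted p = 0.0785, 95% interval -0.97 to -0.05). Without NSC replicate A it was -0.78 (adjusted p = 0.00313).

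Of the 4 genes of cytokinesis, Racgap1 and Ect2 did not overlap between yNSCs and NSCs, and Prc1 and Anln did. Racgap1, a part of centralspindlin, stood at 7.07, 7.05 and 7.05 in yNSCs, 9.19, 8.85 and 8.82 in NSCs and 4.83, 4.81 and 5.19 in neurons. Ect2, the exchange factor for RhoA that centralspindlin brings to the midzone, stood at 8.37, 8.29 and 7.72 in yNSCs, 9.44, 9.36 and 9.51 in NSCs and 3.79, 3.76 and 4.30 in neurons. The yNSC differences from NSCs were -1.90 for Racgap1 (adjusted p = 3.44e-07) and -1.31 for Ect2 (adjusted p = 1.08e-04). Prc1, which cross-links midzone microtubules, stood at 9.29, 9.15 and 9.09 in yNSCs, 9.14, 9.69 and 9.71 in NSCs and 4.50, 5.27 and 5.13 in neurons. Anln, which encodes the contractile ring protein anillin, stood at 8.97, 8.76 and 8.56 in yNSCs, 8.87, 9.61 and 9.54 in NSCs and 4.98, 4.96 and 4.55 in neurons. In both, NSC replicate A lay within the range of the yNSC arrays. Prc1 was not called (difference -0.34, 95% interval -0.77 to 0.10, adjusted p = 0.219), and a second probe set of it gave a difference of 0.09. Anln was called (difference -0.58, adjusted p = 0.0345) and was not without yNSC B (adjusted p = 0.082), yNSC C (0.133), NSC B (0.141) or NSC C (0.122).

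Mki67, which encodes the Ki-67 protein that coats mitotic chromosomes and is widely used to score proliferation, stood at 9.79, 9.78 and 9.54 in yNSCs, 10.65, 11.31 and 11.34 in NSCs and 6.30, 6.65 and 6.27 in neurons. Top2a, the topoisomerase that untangles sister chromatids, stood at 10.32, 10.25 and 10.10 in yNSCs, 10.39, 11.04 and 11.09 in NSCs and 6.03, 6.41 and 6.31 in neurons. No group overlapped another in either gene. The yNSC difference from NSCs was -1.40 for Mki67 (adjusted p = 5.91e-05) and -0.62 for Top2a (adjusted p = 0.0146). The call of Top2a was lost without yNSC C (adjusted p = 0.0596), NSC B (0.0657) or NSC C (0.0652).

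**Figure D3:**
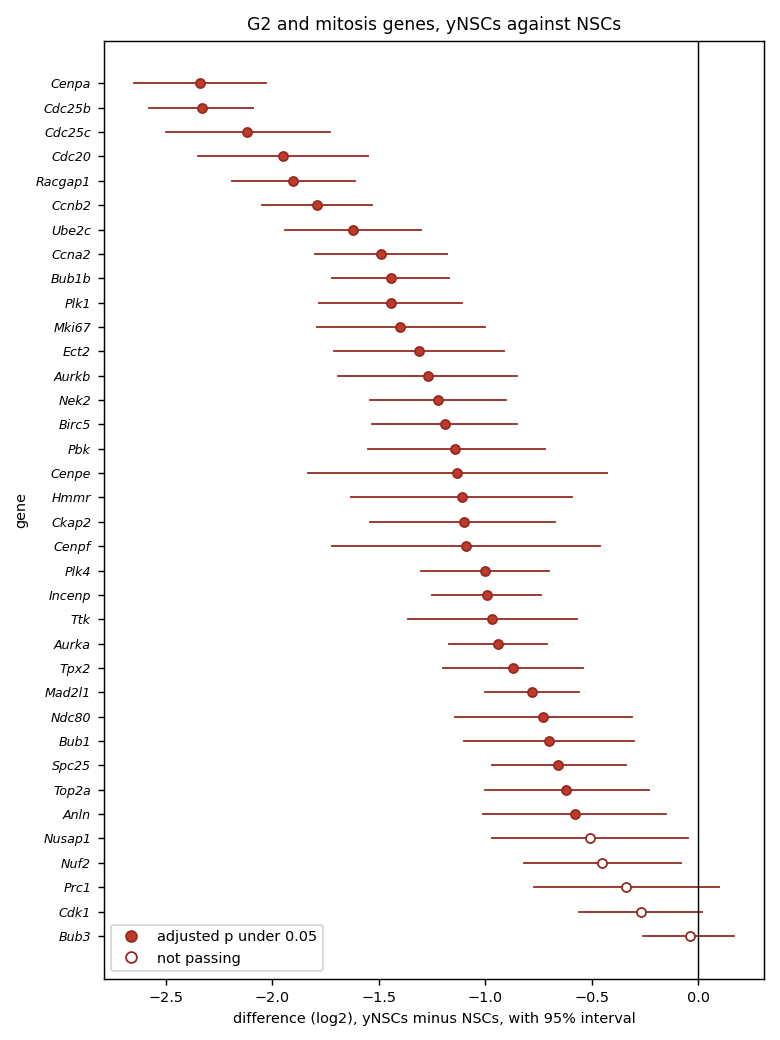
Difference between yNSCs and NSCs (x axis, log2, yNSC mean minus NSC mean) for the 36 genes, sorted, with bars for the 95% interval of each gene and filled points for an adjusted p under 0.05. The points run from -2.34 for Cenpa to -0.04 for Bub3, and the 5 open points are Nusap1, Nuf2, Prc1, Cdk1 and Bub3.

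By role, the median difference between yNSCs and NSCs was -1.79 for the cyclins, Cdk1 and the Cdc25 phosphatases, -1.78 for both partners of the anaphase-promoting complex, -1.19 for the passenger complex, -1.14 for the mitotic kinases, -1.01 for mitotic chromosomes, -0.99 for the spindle, -0.94 for cytokinesis, -0.91 for the kinetochore and centromere and -0.78 for the checkpoint. Each role holds 2 to 6 genes, and differences between roles were not tested.

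In the neurons, all 36 genes lay above the line of near-background signal, taken as the lower quartile of the neuron arrays (3.71), with group means from 3.95 for Ect2 to 9.84 for Bub3. Values near that line can hide a lower level. Most probe sets of an array lie above its lower quartile by definition, so a value above it does not by itself show expression. The median of the 36 genes was 4.96, 5.3 and 5.16 in neuron A, B and C, beside medians of 4.99, 5.02 and 5.01 for these whole arrays. The neuron arrays also spread more than the others for these genes: the median SD was 0.11 in yNSCs, 0.18 in NSCs and 0.26 in neurons.

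The NSC arrays differed among themselves on these genes. NSC replicate A lay at least 0.5 below the mean of NSC replicates B and C for 11 of the 36 genes (30.6%), as it did for 7.0% of all genes, and at least 0.5 above it for none. The gap was largest for Cenpf, a large kinetochore protein of G2 and mitosis, with 8.23 in NSC A and 9.62 and 9.58 in NSC B and C, beside 8.20, 8.12 and 7.84 in yNSCs and 4.82, 4.78 and 4.68 in neurons. Cenpe, the kinetochore kinesin, showed the same with 7.54 in NSC A and 8.75 and 8.88 in NSC B and C, beside 7.50, 7.28 and 7.01 in yNSCs and 4.40, 5.32 and 4.98 in neurons. On these probe sets NSC replicate A lay beside the yNSC arrays and not beside the other NSC arrays. On a second probe set of Cenpe, NSC A (7.97) lay between the yNSC arrays (6.97, 6.87 and 6.54) and NSC B and C (9.03 and 8.71). Of the dimmer probe sets of Cenpf, one also had NSC A in between (5.63, with 5.03, 5.0 and 5.2 in yNSCs and 6.82 and 6.67 in NSC B and C). Another had NSC A (5.12) among the yNSC arrays (5.35, 5.12 and 5.27). Hmmr, Ckap2, Nusap1, Ndc80, Anln, Bub1, Mki67, Top2a and Prc1 were the other 9 of the 11, with gaps from -0.95 for Hmmr to -0.56 for Prc1. Dimmer probe sets of Top2a (7.84 against 7.32 and 7.44) and Hmmr (6.2 against 5.78 and 5.88) had NSC A as the highest NSC array. The remaining further probe sets of Hmmr, and those of Cenpf, Cenpe, Nusap1, Anln, Bub1 and Prc1, had NSC A as the lowest.

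Other members went the opposite way. In Birc5, Plk1 and Racgap1, NSC replicate A was the highest of the 3 NSC arrays, by 0.38, 0.37 and 0.35 over the mean of the others. It was the lowest NSC array for 18 genes (and for 42.1% of all genes) and the highest for 11. Among the 100 other G2 and mitosis genes measured, it was at least 0.5 below for 16 and at least 0.5 above for 5, and the condensin subunits Smc4 and Smc2, named after their values had been seen, had gaps of -1.39 and -1.0. Of the control probe sets, the Gapdh difference was highest in NSC A (0.28) and the 18S rRNA probe set lowest (10.63), while the Actb difference of NSC A (0.62) lay between those of NSC B (0.56) and NSC C (0.70). Their part in the gaps was not tested.

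Without NSC replicate A, 32 of the 36 genes were called lower in yNSCs than in NSCs. Of the 11 genes low in that array, 9 were called with it and 10 without it. The yNSC difference from NSCs was then -1.55 for Cenpf (-1.09 with it) and -1.55 for Cenpe (-1.13 with it), both called. Of both genes, Cenpe alone lost its call with other arrays left out: without yNSC C (adjusted p = 0.0603), NSC B (0.0638) or NSC C (0.0642), against 0.0141 with all arrays. Within the yNSCs, replicate C was the lowest array for 29 of the 36 genes, as it was for 35.9% of all genes, with a median gap of -0.15 to the mean of the others.

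**Figure D4:**
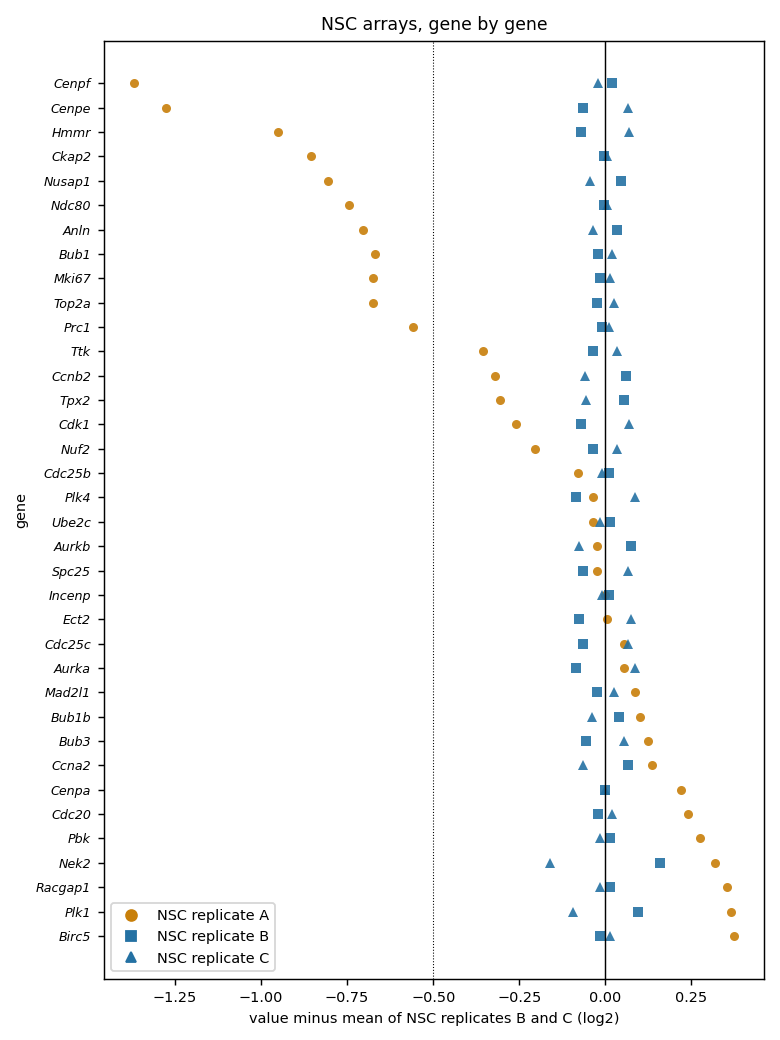
Value of each NSC array minus the mean of NSC replicates B and C (x axis, log2) for the 36 genes, sorted by NSC replicate A (orange circles), with B as blue squares, C as blue triangles and a dotted line at -0.5. Replicate A runs from -1.37 for Cenpf to 0.38 for Birc5, while B and C lie furthest apart for Nek2 (log2 values of 8.56 and 8.24).

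Most genes had further probe sets on the array, and 23 of the 36 had at least 1 besides the one used, 43 in all. Of these 43, 27 were called higher and 4 lower for yNSCs against neurons, 33 higher and 3 lower for NSCs against neurons, and 1 higher and 24 lower for yNSCs against NSCs. Over all 34945 probe sets with 1 gene symbol, 33.2% were called higher and 26.1% lower for yNSCs against neurons, 32.9% and 31.7% for NSCs against neurons, and 21.4% and 18.5% for yNSCs against NSCs. The probe sets that ran against the gene's own direction from neurons belonged to Nek2 and Tpx2 and were dimmer than the ones used.

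A wider list of 100 measured G2 and mitosis genes, again without kinesins and drawn up with results for the 36 genes known, had smaller median differences in all 3 comparisons. In yNSCs against neurons 80 were called higher and 5 lower (median 1.85, with 27.9% of all genes lower), and in NSCs against neurons 83 higher and 7 lower (median 2.57, with 34.1% of all genes lower). In yNSCs against NSCs 47 were called lower and 5 higher (median -0.39, with 21.3% of all genes higher). Of 13 other G2 entry regulators, 12 were higher in both yNSCs and NSCs than in neurons and 9 were lower in yNSCs than in NSCs. Melk, a kinase linked to proliferation, led them against neurons with 4.29 in yNSCs and 5.28 in NSCs. Bora, the activator of Aurora A and Plk1, led them in yNSCs against NSCs with -1.60, next to Cdc25a, the remaining Cdc25 phosphatase, with -1.58.

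Condensins, separase and cohesion genes were higher than in neurons for all 14 members in both comparisons and lower in yNSCs than in NSCs for 7, among them Espl1, which encodes separase (-1.58). Spindle, centriole and cytokinesis genes were lower in yNSCs than in NSCs for 14 of 19, with Tacc3 at -1.58 and Aspm, a spindle pole protein, at -1.50. Of 29 kinetochore and centromere genes, 11 were lower in yNSCs than in NSCs and 2 higher. Cdca8, which encodes borealin, another subunit of the passenger complex, stood at 9.06, 8.82 and 8.60 in yNSCs, 10.89, 10.79 and 10.99 in NSCs and 5.38, 5.22 and 5.50 in neurons. It matched its partners Aurkb, Incenp and Birc5 in direction, and its yNSC difference from NSCs was -2.06 (adjusted p = 1.46e-07).

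The medians were smallest for subunits of the anaphase-promoting complex and for the factors that regulate these promoters. Of 13 subunits and partners of the complex, 8 were higher and 1 was lower against neurons in yNSCs (median 0.58), while against NSCs 2 were higher and 2 were lower (median 0.09). Its activator Cdc20 and its ubiquitin-conjugating enzyme Ube2c differed by -1.95 and -1.62 in yNSCs against NSCs. Of 12 genes of the MuvB, Myb and FoxM1 group, 7 were higher and 1 was lower against neurons in yNSCs (median 0.96). Rbl1, which encodes the pocket protein p107 of DREAM, led them with 3.62 in yNSCs and 3.91 in NSCs. Foxm1, the forkhead factor that activates many G2 genes, stood at 6.20, 6.05 and 6.41 in yNSCs, 6.78, 6.50 and 6.35 in NSCs and 6.74, 6.70 and 6.80 in neurons. Foxm1 had 4 probe sets, and the brightest, used here, thus gave a lower value in yNSCs than in neurons (difference -0.53, adjusted p = 0.00371). Values of its other probe sets are not given here. Mybl2, which encodes B-Myb, was 1.06 higher in yNSCs than in neurons and differed by -0.56 from NSCs (adjusted p = 0.0342).

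The 5 genes of the wider list that were higher in yNSCs than in NSCs were Lin37, Anapc10, Anapc11, Zwint and Cenpb. Zwint and Cenpb were named after their values had been seen. Zwint, which encodes a kinetochore protein, had the largest such difference (1.28, adjusted p = 4.85e-07), with 11.64, 11.60 and 11.64 in yNSCs, 10.38, 10.31 and 10.35 in NSCs and 11.87, 12.04 and 12.02 in neurons. Zwint had 7 probe sets, and on the brightest, used here, the neuron arrays were the highest, opposite to all 36 genes.

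**Figure D5:**
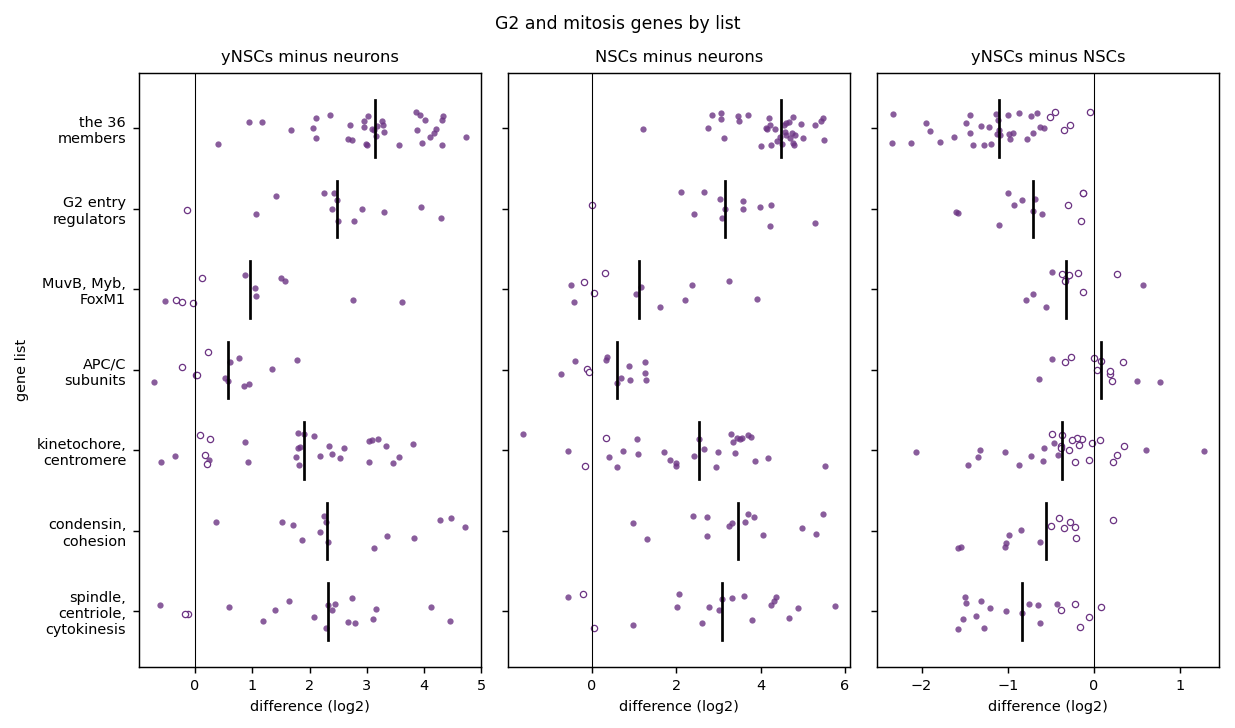
Differences (x axis, log2) of the 36 members and of the 6 lists of other G2 and mitosis genes in yNSCs minus neurons, NSCs minus neurons and yNSCs minus NSCs, with 1 point per gene, filled where the adjusted p was under 0.05, and a black bar at each list's median. The 36 members have the highest median in both panels against neurons (3.14 and 4.49) and the lowest against NSCs (-1.11).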

How the data were processed

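Total RNA was extracted with Trizol, labelled as biotinylated cRNA and hybridised to Affymetrix Mouse430_2 arrays. The deposited values are log2 expression per probe set that the authors made with RMA; the version, and whether all 9 arrays were normalised together, are not given in the sources used here. They were used as deposited. Control probe sets (64 of 45101) were kept out of the tests, and 34945 carried 1 gene symbol in the array annotation (932 carried several and 9160 none here). A gene took its probe set of highest mean over the 9 arrays, which left 18193 genes.

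The values were fitted with limma 3.58.1 in R 4.3.3 (lmFit and eBayes, 3 group means, all 9 arrays), checked first on simulated data, with Benjamini-Hochberg adjustment over all genes and a threshold of 0.05. The number of arrays limits the precision: with 3 against 3 arrays a two-sided exact permutation test of 1 gene cannot give a p below 0.1. The labels call the replicates biological and say nothing of separate animals. Every member could be named, and of each other list the 3 called genes of largest and the 3 of smallest absolute difference in each comparison. The members and lists were chosen with earlier results of these data known. The alternatives were the probe set rule, normalization, scaling, a filter on low genes, the variance model, a minimum fold, the samples fitted, a replicate block, and leaving out each array. Promoters came from a RefSeq table on GRCm38.p6.

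The labels do not say whether replicate letters pair the samples. Deviations of arrays with the same letter correlated at -0.105 to 0.1, and those with other letters at -0.184 to 0.136. Such correlations cannot show whether arrays of different groups shared a preparation.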

Additional observations from a re-analysis of the deposited data

How the results depend on the processing

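In both comparisons with neurons all 36 genes remained called under each alternative without a minimum fold, and no difference of any of the 36 genes changed sign in any of the 3 comparisons. The median difference in yNSCs against neurons was 2.97 after a further quantile normalization and 2.4 when a gene's probe sets were averaged, and in NSCs against neurons 3.48 with such averages, which take in dim probe sets. At a minimum of 2-fold, 20 of the 36 genes and 22 of the 100 other genes were called in yNSCs against NSCs. Of the single differences, 1913 stayed on their side of the threshold, 7 gained and 24 lost their call, those at the minimum fold included.

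Leaving out each array in turn gave 36 to 36 genes called in both comparisons with neurons and 28 to 32 in yNSCs against NSCs, medians of 3.09 to 3.22, 4.41 to 4.62 and -1.15 to -0.95 (the last without NSC C), and 82 to 86, 88 to 91 and 50 to 58 of the other genes. With the replicate letter as a block, 36, 36 and 31 of the 36 genes and 84, 90 and 55 of the other genes were called. TTTGAA or TTCGAA stood in 74.2% of member promoters in the whole 300 bases. Anln was not called when its probe sets were averaged (adjusted p = 0.23).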
